A study of Mus musculus with 30 samples.

Results

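Pool 4 of a polysome gradient of undifferentiated mouse embryonic stem cells (ESC) was compared with unfractionated RNA of the same cells. The comparison took the 3 arrays labelled ESC pool 4 and the 3 arrays labelled ESC total RNA, 6 of the 30 arrays of the series, and every probe set other than the array maker's controls, 45037 in all. The cells were R-1 ESC cultured undifferentiated in LIF, a cytokine that sustains self-renewal, and no allele or transgene is named. They met cycloheximide at 150 ug/ml for 15 min, which stops ribosomes on the mRNAs, and a cytoplasmic lysate was spun through sucrose. The gradient was collected in fractions that were merged to give 4 pools. RNA was purified from the pools and from lysate that had not been spun, and 2.5 ug was labelled for each Affymetrix mouse expression array. Every group used here met the cycloheximide, per the labels. Day 5 embryoid bodies (EB), aggregates of the same cells grown without LIF, were handled in parallel and gave 3 arrays of pool 4 and 3 of unfractionated RNA. The labels call the 3 samples of a group biological replicates. Whether pool 1 holds the light or the heavy end is not stated, so each pool keeps its number here.

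On a sucrose gradient an mRNA travels with the ribosomes it carries. An mRNA with many ribosomes sinks far, an mRNA with few stays near the single ribosomes and subunits, and RNA without ribosomes stays near the top. Long coding sequences have room for more ribosomes than short ones, and mRNAs that are poorly initiated, or noncoding, carry few. A difference between a pool and unfractionated RNA shows how strongly a transcript was represented in that pool relative to all transcripts. Because each array was made from the same mass of RNA, it does not show what share of the cell's copies lay there.

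The deposited values were log2 signals. They were returned to linear signal, 32 was added, log2 was taken again, and the 6 arrays were quantile normalised, which gives them the same distribution. The result is called the level, and a difference is the mean level of pool 4 minus that of unfractionated RNA, in log2 with its standard error (SE), n = 3 arrays a group. A probe set or gene with a Benjamini-Hochberg adjusted p under 0.05 in limma, over all 45037 probe sets, is called. A gene is represented by its probe set of highest mean level, which gives 18194 genes.

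Arrays within pool 4 correlated at 0.977 or more, arrays of unfractionated RNA at 0.982 or more, and arrays across the groups at 0.971 to 0.98. Before normalisation pool 4 had a mean signal of 83.0 to 112, and unfractionated RNA 151 to 156 (exact permutation p = 0.1, two-sided, the smallest that 3 against 3 arrays allow). On the pool 4 arrays 49.7% to 59.1% of probe sets lay at a fixed lowest value, and the unfractionated arrays had no such floor. The control probe sets of B1, a repeat found in introns and transcripts, averaged 9.16 ± 0.09 (SD, n = 3, deposited log2) in pool 4 and 12.05 ± 0.09 in unfractionated RNA. The pool 4 arrays differed among themselves. The signal of 18S ribosomal RNA was 8.26, 6.28 and 4.68 on replicates 1, 2 and 3, and the 3′ minus 5′ difference of the Actb control was 1.34, 2.02 and 3.54. A probe set of the nuclear RNA Malat1 was at 9.92, 6.95 and 6.07 on the same arrays and at 8.03, 8.97 and 8.63 on the unfractionated arrays. The part of these differences in the results was not tested. All 10 ESC identity markers had a measured level, with none at the floor on all 3 pool 4 arrays and none called. Their summed deposited signal was 14600 to 19000 in pool 4 and 28800 to 31700 in unfractionated RNA. Of the other marker lists, 5 of 12 fibroblast, 4 of 10 primitive endoderm, 1 of 6 neural and 2 of 6 mesoderm markers were at the floor on all 3 pool 4 arrays, and none of these markers was called by limma (1, 2, 2 and 0 had an unadjusted p under 0.05, in that order, and 1 of the ESC markers). In bulk RNA, fewer cells of a type and less RNA per cell cannot be told apart. Summed signals in pool 4 were 220 to 284 for fibroblast, 90.2 to 143 for primitive endoderm, 146 to 215 for neural and 89.9 to 104 for mesoderm markers. In unfractionated RNA they were 252 to 417, 129 to 163, 209 to 270 and 82.7 to 150.

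Genes called higher in pool 4 included 10 of 31 proteasome, 8 of 21 chaperone, 5 of 20 tRNA synthetase and 9 of 49 very long coding sequence genes. Genes called lower included 12 of 72 respiratory chain, 9 of 76 mitochondrial ribosomal protein and 4 of 17 short mRNA genes. These counts hold for quantile normalised levels. With median centring and on the deposited scale, both defined below, the proteasome had 1 and 0 genes higher with 2 and 5 lower, the chaperones 0 and 0 higher with 5 and 6 lower, and the respiratory chain 40 and 48 lower. Of 45037 probe sets, 499 were called higher (1.11%) and 471 lower (1.05%), together 2.15%. Counted by gene, 342 were higher (1.88%) and 273 lower (1.5%), so that 3.38% of 18194 genes were called. Of the 18194, 5597 lay at the floor on all 3 pool 4 arrays, and the shares include them. Calls were denser among genes with a mean level above 7. In 5 groups of these by genomic span, each of 956 or 957 genes, 37 to 72 were higher and 16 to 91 lower. All 615 called genes had no overlap between the 3 pool 4 arrays and the 3 unfractionated arrays, a pattern that 28.6% of all genes showed. The calls needed all 6 arrays. Without pool 4 replicate 1, 2 or 3 there were 2, 0 and 2 called probe sets, and without unfractionated replicate 1, 2 or 3 there were 0, 124 and 0. All 970 kept their sign in each of these fits. They had been called on the same arrays, so the kept sign was largely fixed by that choice and is no separate support. With 8 added to the signal in place of 32, limma called 1 probe set, and 7665 had an unadjusted p under 0.05. At an unadjusted p under 0.05 there were 7074 probe sets with all arrays and 5612 to 7536 with an array left out. Directions are relative to all transcripts on the array. On the deposited scale, with 32 added and no further normalisation, 14 probe sets were called higher and 3654 lower, and with median centring, which moves each array to the same median, 8923 higher and 1969 lower. On the deposited scale the median gene outside the lowest 40% of levels was at -0.33, and after median centring at -0.11. Of the 342 genes called higher, 335 lay above -0.33 on the deposited scale and 251 above 0, while all 273 called lower lay below -0.33.

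**Figure D1:**
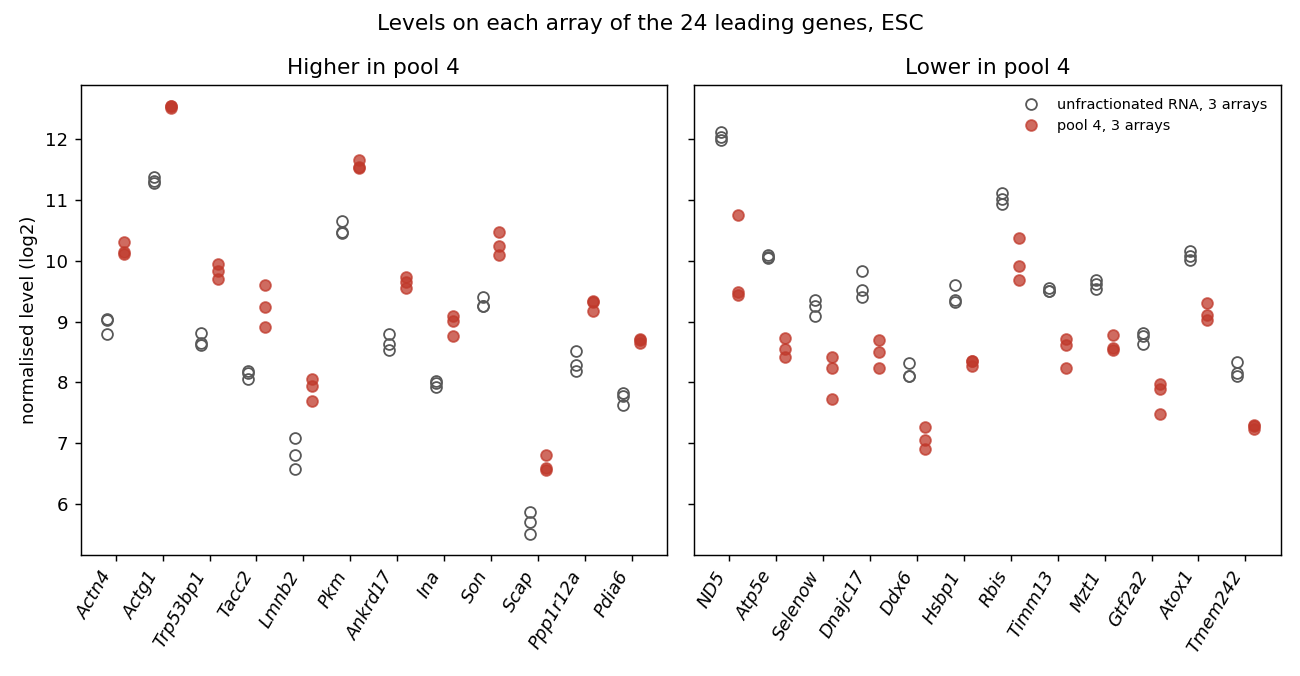
Levels (log2, after quantile normalisation) on each of the 6 ESC arrays for the 12 genes with the largest rise and the 12 with the largest fall in pool 4. Filled points are the 3 pool 4 arrays and open points the 3 arrays of unfractionated RNA. The genes were chosen among those whose groups do not overlap, and the ND5 points of pool 4 spread from 9.44 to 10.75.

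Among called genes, clone-like symbols skipped, the largest rise was in Actn4, alpha-actinin 4, which crosslinks actin filaments. Its level was 10.15, 10.11 and 10.31 in pool 4 and 9.05, 8.79 and 9.02 in unfractionated RNA, a rise of 1.24 ± 0.09 (adjusted p = 0.0155). Cytoplasmic gamma actin, Actg1, stood at 12.54, 12.54 and 12.51 against 11.32, 11.28 and 11.37, a rise of 1.20 ± 0.05 (adjusted p = 0.00592). The 3 pool 4 arrays of Actg1 agreed within 0.03, a small spread beside the rise. Actins are a family of near-identical sequences, so part of this signal could come from other members. Trp53bp1, a protein recruited to DNA double-strand breaks, stood at 9.70, 9.94 and 9.83 against 8.82, 8.65 and 8.61, a rise of 1.13 ± 0.09, while the mean over its 6 probe sets was 0.35. Tacc2, a protein of centrosomes and microtubules, rose by 1.12 ± 0.17 and had its lowest pool 4 array at 8.91 and its highest unfractionated array at 8.19. Lmnb2, the lamin B2 of the nuclear lamina, rose by 1.07 ± 0.15.

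Pkm, the pyruvate kinase of the last step of glycolysis, was at 11.65, 11.54 and 11.53 in pool 4 and at 10.47, 10.45 and 10.66 in unfractionated RNA, a rise of 1.05 ± 0.08. Ankrd17, a large ankyrin repeat protein, rose by 1.00 ± 0.09 with a mean of 0.21 over its 6 probe sets. Ina, an intermediate filament protein known from neurons, rose by 0.98 ± 0.10. Son, a large protein of nuclear speckles needed for splicing, was at 10.09, 10.25 and 10.48 against 9.41, 9.25 and 9.25, and rose by 0.97 ± 0.11, with a mean of 0.34 over 7 probe sets. Scap, which escorts the sterol-sensing SREBP factors, rose by 0.96 ± 0.11 from a low level of 5.51 to 5.87. Ppp1r12a, the myosin-binding subunit of myosin phosphatase, rose by 0.95 ± 0.10 with a mean of 0.23 over 4 probe sets, and Pdia6, a disulfide isomerase of the endoplasmic reticulum, by 0.95 ± 0.06.

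At the low end stood ND5, a subunit of respiratory complex I that is encoded in mitochondrial DNA and made by mitochondrial ribosomes. Its level was 9.44, 9.48 and 10.75 in pool 4 and 11.98, 12.04 and 12.12 in unfractionated RNA, a difference of -2.16 ± 0.36 (adjusted p = 0.0473). Replicate 3 of pool 4 lay above the other pool 4 arrays but below every unfractionated array. Atp5e, the epsilon subunit of ATP synthase and a very small protein, was at 8.73, 8.55 and 8.42 against 10.05, 10.07 and 10.10, a difference of -1.50 ± 0.09 (adjusted p = 0.0155). Selenow, a small selenoprotein, was at 8.41, 8.24 and 7.72 against 9.09, 9.26 and 9.36, a difference of -1.11 ± 0.18.

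Dnajc17, a J-domain protein, differed by -1.11 ± 0.16. Ddx6, an RNA helicase of processing bodies that represses translation, was at 7.27, 7.06 and 6.90 against 8.10, 8.10 and 8.32, a difference of -1.10 ± 0.12. Of 4 Ddx6 probe sets, 2 others had pool 4 levels that ran from 5.89 to 8.68 and from 5.33 to 7.99 and were not called, so Ddx6 rests on its probe set of highest mean. Hsbp1, a small regulator of heat shock factor, differed by -1.10 ± 0.09, Rbis, a small protein of ribosome assembly, by -1.04 ± 0.18, and Timm13, a small chaperone of the mitochondrial intermembrane space, by -1.0 ± 0.13. The differences were -0.99 ± 0.08 for Mzt1, a small protein of the microtubule-nucleating gamma-tubulin complex, and -0.95 ± 0.14 for Gtf2a2, the small subunit of the general transcription factor TFIIA. They were -0.93 ± 0.09 for Atox1, a copper chaperone, and -0.92 ± 0.07 for Tmem242, a mitochondrial membrane protein.

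Across all probe sets the largest fall was in a probe set of Nme1, a nucleoside diphosphate kinase, singled out after its values were seen. It was at 7.83, 7.89 and 8.23 in pool 4 and at 11.46, 11.16 and 11.37 in unfractionated RNA, a difference of -3.35 ± 0.13 (adjusted p = 0.00592). The other Nme1 probe set stood at 9.92, 10.04 and 10.01 against 10.25, 9.82 and 10.18 and was not called (-0.10 ± 0.12, adjusted p = 0.751). In day 5 EB both were called lower, at -2.11 (adjusted p = 0.0107) and -0.55 (adjusted p = 0.0463). The 2 probe sets of this gene disagree in ESC, and which of them reports Nme1 was not tested. Over the 74 genes named by rule, 52 had several probe sets, and the mean over a gene's probe sets had the sign of the representative in all 52. That mean includes the representative, so a shared sign is partly built in. Of the 47 that were called in ESC and had several probe sets, 26 had a mean under 0.5 times the representative's difference. Among the falls above these were Dnajc17 with -0.29, Rbis with -0.41, Atox1 with -0.38 and Tmem242 with -0.37.

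The protein quality machinery was among the groups with most rises after quantile normalisation. Proteasome subunits, which form the particle that degrades ubiquitin-tagged proteins, had 10 of 31 measured members higher and 0 lower. Of all genes, those at the floor included, 1.88% were higher, and the share was larger among genes with a mean level above 7. The list median was 0.25, where the median of all genes was -0.01. Psmd1, a large subunit of the regulatory particle, was at 10.93, 10.80 and 11.10 against 10.09, 10.04 and 10.11, a rise of 0.87 ± 0.09 (adjusted p = 0.0186). Psmc3, an ATPase of that particle, was at 10.48, 10.61 and 10.52 against 9.76, 9.71 and 9.81, a rise of 0.78 ± 0.06. No pool 4 array of either gene fell to the unfractionated range, as for all 615 called genes. Chaperonin and heat shock genes, whose products fold other proteins, had 8 of 21 higher and 0 lower, with a median of 0.23. Cct2, a subunit of the ring-shaped TRiC chaperonin that folds actin and tubulin, rose by 0.60 ± 0.06 from 11.97, 12.03 and 11.93 to 12.51, 12.58 and 12.64. Hspa4, an exchange factor for Hsp70, rose by 0.60 ± 0.09, with a mean of 0.07 over 4 probe sets. The proteasome median was -0.27 and the chaperone median -0.38 on the deposited scale, and -0.05 and -0.16 after median centring, against -0.33 and -0.11 for the median gene outside the lowest 40% of levels; the chaperone list thus lay slightly below it on both scales. The calls turned there: with median centring 1 proteasome gene was higher and 2 lower, and 0 chaperone genes higher and 5 lower. No gene of either list was higher on the deposited scale, where 5 proteasome and 6 chaperone genes were lower.

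Aminoacyl-tRNA synthetases, which load amino acids onto tRNAs, had 5 of 20 members higher, 0 lower and a median of 0.34, the highest of the 23 lists. Aars, the alanine enzyme, was at 10.53, 10.61 and 10.92 against 9.76, 9.99 and 9.94, a rise of 0.79 ± 0.12. Mars1, the methionine enzyme, rose by 0.72 ± 0.08. The other members called were Aimp1, Gars and Rars, named after their values were seen, with rises of 0.65, 0.55 and 0.55. The list median on the deposited scale was -0.15 with 0 genes called in either direction, and after median centring it was 0.07 with 1 higher and 0 lower.

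Genes with very long coding sequences had 9 of 49 members higher, 0 lower and a median of 0.28, and 40 of the 49 differences were above 0. Dst, the giant cytoskeletal linker dystonin, was at 7.57, 7.80 and 8.09 against 7.03, 6.79 and 6.91, a rise of 0.91 ± 0.14 (adjusted p = 0.0413). Kmt2d, a histone H3 lysine methyltransferase, was at 7.52, 7.41 and 7.54 against 6.82, 6.93 and 6.84, a rise of 0.63 ± 0.06. The median of this list was -0.10 on the deposited scale, with 1 gene higher and 1 lower, and 0.11 after median centring, with 2 higher and 0 lower.

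Genes of glycolysis had 4 of 17 members higher and 0 lower, with a median of 0.21. Besides Pkm these included Slc2a3, a glucose transporter, which rose by 0.45 ± 0.06 from 11.29, 11.25 and 11.41 to 11.78, 11.78 and 11.73. The list median was -0.31 on the deposited scale, with 0 higher and 7 lower, and -0.10 after median centring, with 1 higher and 4 lower; Slc2a3 itself was at -0.31 and -0.10. Cell cycle genes had 4 of 41 higher and 0 lower, and all 4 act in DNA replication. Mcm6 and Mcm7, subunits of the replicative helicase, rose by 0.65 ± 0.10 and 0.58 ± 0.05. Mcm5 and Pcna, the clamp that holds the polymerase, were called too, with rises of 0.50 and 0.43, and are named after their values were seen. With median centring 0 cell cycle genes were higher and 3 lower, and on the deposited scale 0 and 5.

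Secretory pathway genes, translated on the endoplasmic reticulum, had 5 of 40 members higher and 1 lower, with a median of 0.06. Besides Pdia6 these included Sec61a1, the channel through which new proteins enter the endoplasmic reticulum, at 9.40, 9.33 and 9.60 against 8.71, 8.80 and 8.74, a rise of 0.69 ± 0.08, while the mean over its 6 probe sets was 0.10. Sec23a, a coat subunit of vesicles that leave the endoplasmic reticulum, was at 7.84, 7.94 and 7.98 against 8.30, 8.33 and 8.31, a difference of -0.40 ± 0.05. Of integrins, laminins and matrix genes, 2 of 26 rose, Sparc, a secreted matrix-binding protein, by 0.74 ± 0.06 and Epcam, an epithelial adhesion protein, by 0.47 ± 0.06. The mean was 0.41 over 3 probe sets for Sparc and 0.09 over 2 for Epcam. The medians of both lists were below 0 on the deposited scale, at -0.38 and -0.24. Secretory pathway genes had 0 higher and 9 lower there and 2 higher and 4 lower with median centring, and the matrix list 0 and 2, and 1 and 2.

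Pluripotency genes, the regulators of the undifferentiated state, had 6 of 39 members higher and 1 lower, with a median of 0.08. The median was -0.38 on the deposited scale, with 0 higher and 10 lower, and -0.17 after median centring, with 1 higher and 7 lower. Klf5, a zinc finger factor of ESC self-renewal, was at 10.66, 10.69 and 11.04 against 9.88, 9.87 and 9.93, a rise of 0.91 ± 0.11 (adjusted p = 0.024), with a mean of 0.16 over its 3 probe sets. Sall4, a further zinc finger factor, was at 10.97, 10.86 and 11.02 against 10.23, 10.36 and 10.28, a rise of 0.66 ± 0.07, with a mean of 0.27 over its 2 probe sets. Dppa2, a chromatin protein of early embryos, was at 9.10, 9.14 and 9.02 against 9.53, 9.52 and 9.48, a difference of -0.42 ± 0.05. Pool 4 replicate 3 of Klf5 lay above the other pool 4 arrays (SD 0.21, n = 3). For none of the 3 genes did the groups overlap, as for all 615 called genes.

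The core factors were not called. Pou5f1 (Oct4) was at 11.19, 10.83 and 10.55 in pool 4 and at 11.10, 11.16 and 11.21 in unfractionated RNA, a difference of -0.30 ± 0.16 (adjusted p = 0.443). Its pool 4 replicate 1 lay inside the unfractionated range and replicate 3 lay farthest below it. Sox2 was at 11.47, 11.71 and 11.82 against 11.91, 11.87 and 11.87 (-0.22 ± 0.10, adjusted p = 0.357). Nanog was at 10.16, 10.27 and 9.92 against 10.49, 10.42 and 10.50 (-0.36 ± 0.10, adjusted p = 0.138). For Sox2 and Nanog no pool 4 array reached the unfractionated arrays, but 28.6% of all genes had groups without overlap.

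Chromatin regulators had 2 of 44 members higher and 2 lower. These counts were the same with median centring and 0 and 3 on the deposited scale. Of all genes, those at the floor included, 1.88% were higher and 1.5% lower. Both shares were larger among genes with a mean level above 7. The small counts after quantile normalisation in this paragraph are not read as a trait of a list. Smarca4, the ATPase of the BAF remodelling complex, was at 9.76, 9.83 and 9.78 against 8.83, 8.90 and 8.92, a rise of 0.90 ± 0.05. Cbx1, a small heterochromatin protein, was at 9.08, 9.23 and 9.39 against 10.09, 9.95 and 9.97, a difference of -0.77 ± 0.09, and Rad21, a cohesin subunit, differed by -0.43 ± 0.07. The mean over the 5 Cbx1 probe sets was -0.24. Of 52 zinc finger genes of the Zfp series, 2 were higher and 3 lower. Zfp106 rose by 0.69 ± 0.05 and Zfp281, a regulator of ESC differentiation, by 0.63 ± 0.10, with means of 0.25 and 0.24 over 5 and 2 probe sets. Zfp266 differed by -0.68 ± 0.11 and Zfp961 by -0.49 ± 0.08, with means of -0.24 and -0.21 over 4 and 2 probe sets. With median centring 1 Zfp gene was higher and 4 lower, and on the deposited scale 0 and 8. Splicing factors had 3 of 43 higher and 0 lower with a median of 0.01, and after Son the largest rise was in Sf3b2, a U2 snRNP subunit, at 0.76 ± 0.11. The calls of this list turned too, to 1 higher and 13 lower with median centring (median -0.31) and to 0 and 20 on the deposited scale (median -0.52).

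**Figure D2:**
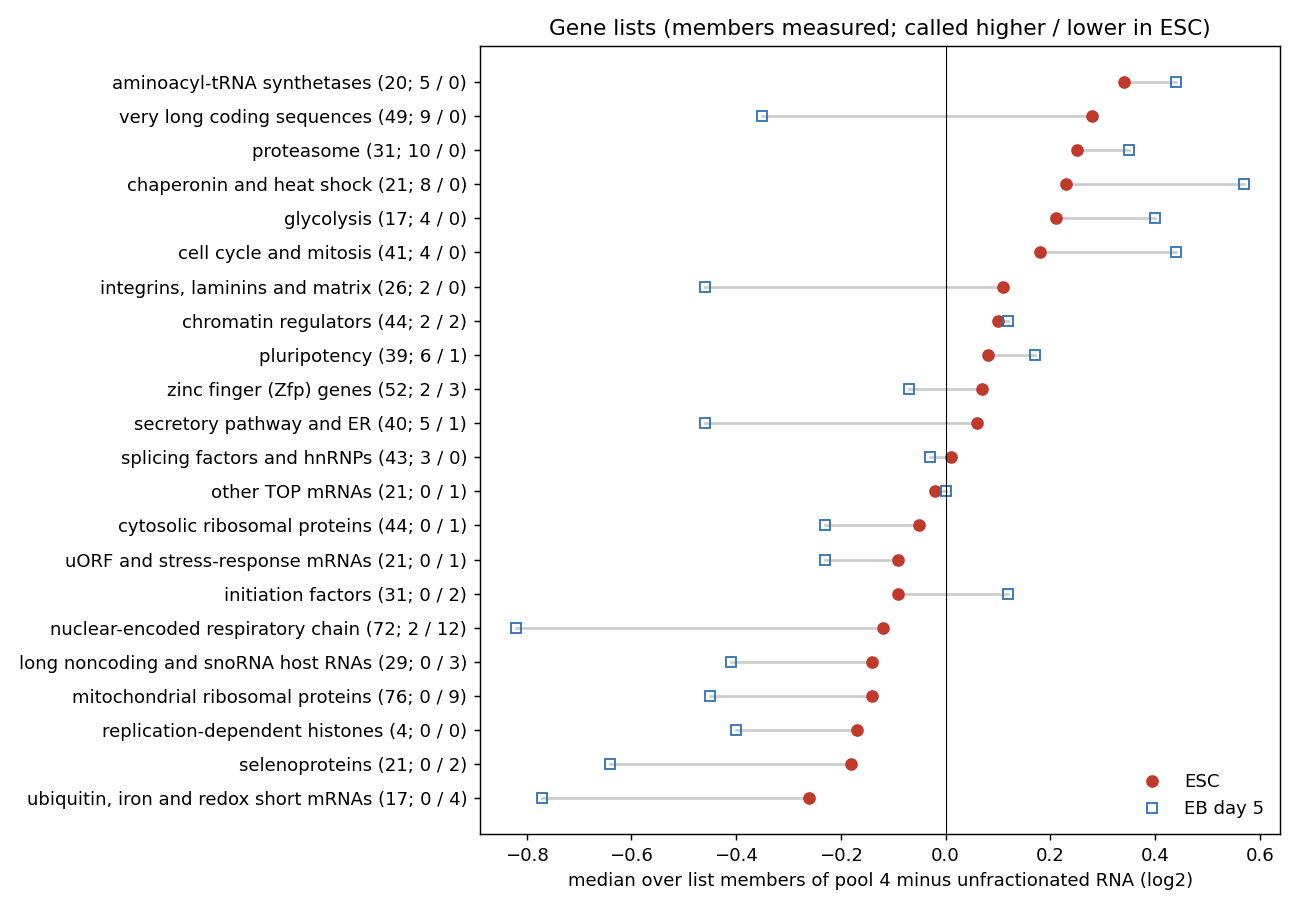
Median over the measured members, for 22 of the 23 gene lists, of the pool 4 minus unfractionated RNA difference (log2), with filled circles for ESC and open squares for day 5 EB; the mitochondrially encoded list, whose 1 measured member ND5 differed by -2.16, is not drawn. Numbers in brackets give the members measured and those called higher and lower in ESC; the ESC medians run from -0.26 for short mRNAs of ubiquitin, iron and redox proteins to 0.34 for tRNA synthetases.

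By number, the most falls were in mitochondrial proteins encoded in the nucleus. Of 72 nuclear-encoded respiratory chain genes, 12 were lower and 2 higher, and the median was -0.12. Of all genes, those at the floor included, 1.5% were lower, and the share was larger among genes with a mean level above 7. After Atp5e the largest fall was in Uqcr10, a small subunit of complex III, at 9.26, 9.21 and 9.48 against 10.01, 10.12 and 10.18, a difference of -0.79 ± 0.09 (adjusted p = 0.0218). The 2 that rose were the main catalytic subunits of ATP synthase. Atp5b was at 11.71, 11.81 and 11.71 against 11.22, 11.27 and 11.26, a rise of 0.49 ± 0.05, and Atp5a1 rose by 0.48 ± 0.08. ATP synthase subunits thus lay on both sides, with the large alpha and beta subunits higher and the small epsilon subunit lower. The rises of the large subunits depend on the scaling: Atp5b was at -0.04 with median centring and -0.25 on the deposited scale, and Atp5a1 at -0.10 on the latter. The respiratory chain list had 0 higher and 40 lower with median centring (median -0.51) and 0 and 48 on the deposited scale (median -0.72).

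Of 76 genes with Mrpl or Mrps symbols, listed as mitochondrial ribosomal protein genes, 9 were lower and 0 higher, with a median of -0.14. A symbol alone does not show that the product is part of that ribosome. Mrps36 was at 7.45, 7.49 and 7.44 against 8.03, 8.27 and 7.95, a difference of -0.62 ± 0.09, and Mrpl10 differed by -0.57 ± 0.08. Of 17 short mRNAs of ubiquitin, iron and redox proteins, 4 were lower and 0 higher, with a median of -0.26. Tmsb4x, the actin-binding peptide thymosin beta 4, was at 10.41, 10.44 and 10.29 against 11.20, 11.19 and 11.25, a difference of -0.83 ± 0.06 (adjusted p = 0.0155). Selenoproteins, whose UGA codon is read as selenocysteine, had 2 of 21 lower and 0 higher. Besides Selenow this was Gpx1, a glutathione peroxidase, at -0.58 ± 0.07. On the deposited scale the medians of these 3 lists were -0.58, -1.05 and -0.56, with 33, 16 and 11 genes lower and 0 higher. With median centring 21, 14 and 4 were lower, and 1 selenoprotein gene was higher.

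Of 29 long noncoding and snoRNA host RNAs, which are not translated or serve mainly as carriers of small RNAs, 3 were lower and 0 higher, with a median of -0.14. Of all genes, those at the floor included, 1.5% were lower, with a larger share among genes with a mean level above 7. With median centring 7 were lower, and on the deposited scale 11. Snhg6, a snoRNA host, was at 10.32, 10.52 and 10.59 against 11.16, 11.05 and 11.15 (-0.64 ± 0.09). Neat1, the scaffold RNA of nuclear paraspeckles, differed by -0.59 ± 0.09, and Pvt1, named after its values were seen, by -0.39. The mean over the 2 Neat1 probe sets was -0.21. Of 21 mRNAs with upstream reading frames or stress control, Fth1 alone was called. Fth1, the ferritin heavy chain, whose mRNA is blocked by iron regulatory proteins, was at 10.62, 10.69 and 10.54 against 11.30, 11.37 and 11.39, a difference of -0.74 ± 0.06 (adjusted p = 0.0155). Of 31 initiation factor genes 2 were lower and 0 higher. Eif4ebp1, a repressor of cap-dependent initiation, differed by -0.60 ± 0.09 and Eif1ax, which helps the small subunit scan for a start codon, by -0.51 ± 0.06. With median centring 4 of the mRNAs with upstream reading frames and 8 of the initiation factors were lower, and on the deposited scale 9 and 17, with 0 higher in each. Of the 4 replication-dependent histone genes measured, limma called 0, and 0 had an unadjusted p under 0.05.

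Cytosolic ribosomal protein mRNAs begin with a pyrimidine tract, the 5′ TOP motif, through which the mTOR pathway controls their translation. Their counts depended on the scaling. Of 44 measured, 1 was lower and 0 higher after quantile normalisation, with a median of -0.05. With median centring 37 were lower and 1 higher, with a median of -0.86, and on the deposited scale 40 were lower and 0 higher, with a median of -1.08. Of 21 other TOP mRNAs, 1 was lower and 0 higher, with a median of -0.02, against 13 lower with median centring and 16 on the deposited scale. Of the 44 ribosomal protein genes 34 had a mean level above 12, where 0.418% of all genes did. Quantile normalisation gives every array the same highest values, so differences near 0 at that level are in large part set by it. The genes called lower after quantile normalisation were Rps6, a protein of the small ribosomal subunit, with -0.76 ± 0.12, and Pfdn5, a prefoldin subunit, with -0.57 ± 0.08. The representative Rps6 probe set had a low level for a ribosomal protein gene, 7.65 to 8.09 in unfractionated RNA. The median of the other TOP mRNAs was -0.60 with median centring and -0.82 on the deposited scale, where the median gene outside the lowest 40% of levels lay at -0.33.

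The transcript starts of a few members are shown because both features were set against the differences, after the data were seen. By RefSeq annotation 8 of 36 ribosomal protein genes with a start and a mean level above 7 had the pyrimidine start, and 4 of 15 other TOP genes, so the starts shown were picked as holders of the feature. They are stretches of 30 transcribed bases on GRCm38.p6 from RefSeq, written 5′ to 3′ with the feature in capitals. The first 4 begin at the annotated start with C and at least 4 further pyrimidines, and the last 4 hold ATGGCGG, the core of the TISU element found in genes with very short leaders.
Rpl38, chr11:114668580-114668609, plus strand: CTTTCCCCgttctcttcggttctcatcgct
Rps18, chr17:33955636-33955665, minus strand: CTCTCTTCCacaggaggcctacacgccgcc
Rplp2, chr7:141447651-141447680, plus strand: CTTTCgccgccggacgccgccgaggtcgca
Gas5, chr1:161035166-161035195, plus strand: CTTTCggagctgtgcggcattctgagcagg
Ndufs7, chr10:80249466-80249495, plus strand: cgaggccaagATGGCGGcgctggcgggtga
Ndufb5, chr3:32737072-32737101, plus strand: cggtgtagccATGGCGGccatgagcctgct
Mrpl22, chr11:58171676-58171705, plus strand: agggctcagcATGGCGGccgcactactgcg
Psmb6, chr11:70525377-70525406, plus strand: tggcagagtagcagaggaagATGGCGGccg

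Rpl38 was at 13.31, 13.43 and 13.34 in pool 4 and at 13.38, 13.34 and 13.45 in unfractionated RNA, a difference of -0.03 ± 0.06. Rps18 differed by 0.03 ± 0.04, Rplp2 by 0.10 ± 0.07 and the snoRNA host Gas5 by -0.14 ± 0.13. The groups of Rpl38 overlap, and none of these 4 was called after quantile normalisation. Rpl38, Rps18 and Rplp2 had levels above 12, where that normalisation in large part sets differences near 0. Their values here therefore cannot show whether they differed in pool 4. On the deposited scale Rpl38 was at -1.17, Rps18 at -1.09 and Gas5 at -0.82. Rplp2 also lay below the median gene outside the lowest 40% of levels, which was at -0.33 on that scale. Of the ATGGCGG genes shown, Ndufs7 and Ndufb5 of complex I differed by 0.23 ± 0.06 and 0.04 ± 0.12, Mrpl22 of the mitochondrial ribosome by 0.11 ± 0.07 and the catalytic proteasome subunit Psmb6 by 0.18 ± 0.06, and none was called.

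Over the genes with a mean level above 7 and a start in the RefSeq table, 130 had a pyrimidine start, with a median difference of -0.01, and 3829 had none, with a median of 0.02. By annotation 8 of 36 ribosomal protein genes and 4 of 15 other TOP genes had this start, so most of them counted as without it. Quantile normalisation also in large part sets differences near 0 at the highest levels. These medians therefore cannot show whether TOP mRNAs differed in pool 4. ATGGCGG, searched on the transcribed strand within 50 bases of the start, was held by 230 genes, with a median of 0.01, of which 10 were higher and 18 lower, and 3729 without it had a median of 0.02, with 223 higher and 168 lower. Any ATG in the same 50 bases, which includes that of ATGGCGG, was held by 1446 genes with a median of -0.00, of which 73 were higher and 93 lower; of 2513 without it 160 were higher and 93 lower, with a median of 0.03. Among all 32851 RefSeq start windows, 2.51% had the pyrimidine start, 1.36% ATGGCGG and 44.3% an ATG. All these differences in medians are small beside those between the gene lists, and a gene with several starts counted as a holder if any start held the motif.

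Longer genes tended to lie higher in pool 4. Genomic span, introns included, stood in for the length of the coding sequence, which was not used here, and the relation was added after the data were seen. Over 4782 genes with a mean level above 7 the rank correlation of span and difference was 0.23 in ESC, a description across genes that share the same arrays. In 5 equal groups by span, the median difference was -0.10 for 957 genes of 0.073 to 8.07 kb, -0.02, 0.03 and 0.06 in the middle groups, and 0.11 for 957 genes of 56.9 to 1180 kb. Among the shortest 957 genes 37 were higher and 91 lower, and among the longest 957 genes 72 were higher and 16 lower. Each pool 4 array, set against the mean of unfractionated RNA, gave the same order: replicates 1, 2 and 3 had medians of -0.11, -0.07 and -0.09 in the shortest group and of 0.09, 0.12 and 0.13 in the longest. On the deposited scale the medians ran from -0.57 to -0.29.

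**Figure D3:**
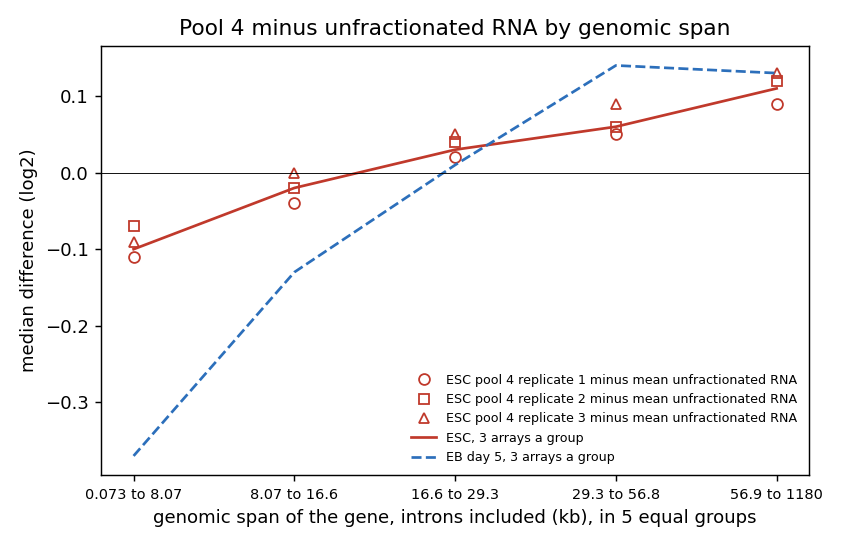
Median difference of pool 4 minus unfractionated RNA (log2) for genes with a mean level above 7, in 5 equal groups by genomic span (kb, introns included). The solid line is ESC with 3 arrays a group, open symbols are the 3 ESC pool 4 arrays and the dashed line is day 5 EB; the ESC medians run from -0.10 to 0.11 and the EB medians from -0.37 in the shortest group to 0.13 in the longest.

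The groups differed in their levels relative to other transcripts in the other pools too. All 15 ESC arrays were normalised together and each pool was set against the same unfractionated arrays, which the 4 comparisons therefore share, and no test was made. Proteasome genes had medians of -0.79, -0.25, 0.43 and 0.27 in pools 1 to 4, and tRNA synthetases of -0.90, -0.32, 0.19 and 0.36. Very long coding sequences had medians of -0.23, -0.41, -0.11 and 0.29, above 0 in pool 4 and below 0 in the other 3. Secretory pathway genes had 0.14, -0.39, -0.45 and 0.06, with their low values in the middle pools. Respiratory chain genes had -0.02, 0.31, -0.01 and -0.12, and short mRNAs of ubiquitin, iron and redox proteins 0.17, 0.25, -0.17 and -0.27. The levels of cytosolic ribosomal protein genes are in large part set by the quantile normalisation, so their medians near 0 are not read here. The medians of pools 1 to 4 on the deposited scale, added after the data were seen, were -0.27, 0.81, -0.24 and -1.08 for ribosomal protein genes, -1.41, 0.55, 0.55 and -0.27 for proteasome genes, and -0.66, -0.03, -0.06 and -0.10 for very long coding sequences. The median gene outside the lowest 40% of levels was at -0.41, 0.40, 0.01 and -0.33 on that scale.

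**Figure D4:**
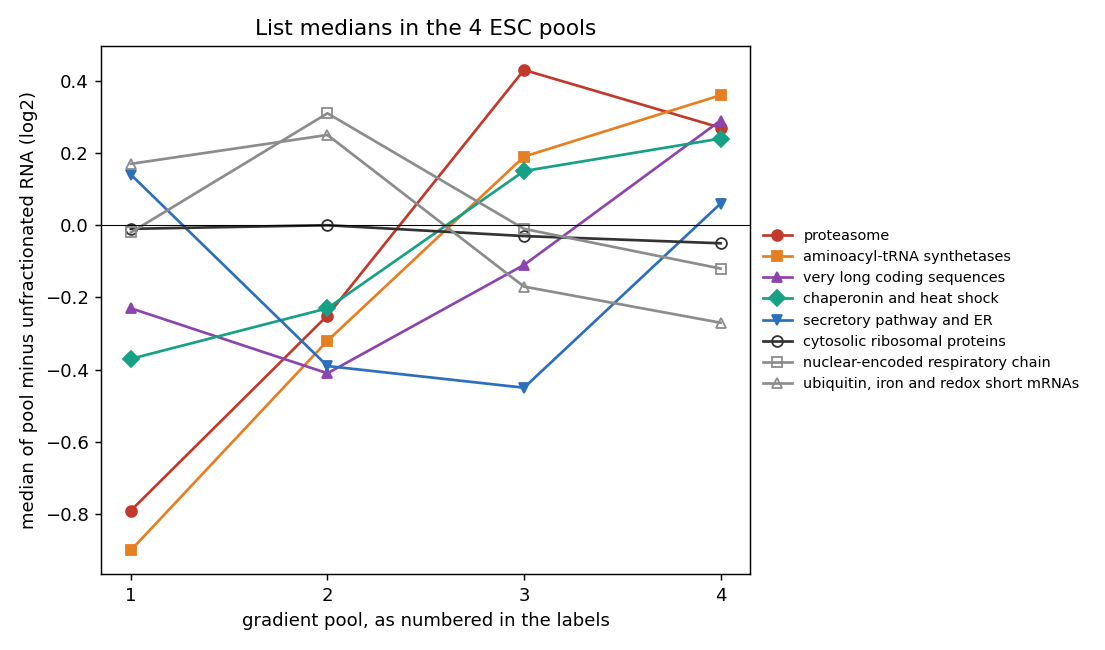
Median over list members of the level in each ESC pool minus that in unfractionated RNA (log2), for 8 gene lists and the 4 pools as numbered in the labels; the 3 unfractionated arrays are shared by all points. Proteasome genes and tRNA synthetases run from -0.79 and -0.90 in pool 1 to 0.27 and 0.36 in pool 4, and the cytosolic ribosomal protein genes near 0 are among the highest levels, which the normalisation gives every array alike.

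Single genes followed different courses. ND5 had mean levels of 13.72, 11.44, 9.40 and 10.10 in pools 1 to 4 and 12.38 in unfractionated RNA, so it was highest in pool 1. Ankrd17 rose through 6.51, 7.75, 9.08 and 9.85, and Son through 7.58, 9.23, 9.92 and 10.53. Atp5e was at 10.35, 10.89, 9.09 and 8.73 and Timm13 at 9.12, 10.20, 9.05 and 8.69, with pool 2 the highest of the 4 for both. Dst was at 7.02, 6.32, 6.86 and 7.95 and Sec61a1 at 9.04, 8.45, 8.45 and 9.63, each highest in pool 4 with pool 1 next. Fth1 fell from 12.54 in pool 1 to 10.88 in pool 4, and Neat1 from 9.18 to 6.88.

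The same comparison in day 5 EB asked which of these differences also held after LIF was withdrawn. EB had 2076 probe sets called higher (4.61%) and 1920 lower (4.26%), 8.87% of all. By gene 6.09% were higher and 6.5% lower, together 12.6%. Without EB pool 4 replicate 1, 2 or 3 there were 998, 1847 and 910 called probe sets, and without unfractionated replicate 1, 2 or 3 there were 1761, 2081 and 2296. Across the 4786 genes with a mean level above 7 the ESC and EB differences, which share no array, had a Pearson correlation of 0.59 and a rank correlation of 0.56, as a description across genes. Of the 342 genes higher in ESC, 285 had a difference above 0 in EB and 145 were called higher there, while 7 were called lower. Of the 273 genes lower in ESC, 253 had a difference below 0 in EB, 170 were called lower and 1 was called higher.

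A test of the difference itself, EB minus ESC on all 12 arrays normalised together, called 519 probe sets higher in EB (1.15%) and 673 lower (1.49%), 2.65% of all. By gene 1.37% were higher and 2.56% lower, together 3.93%. Leaving out an array moved this count to between 402, without ESC pool 4 replicate 2, and 1061, without ESC unfractionated replicate 2; it was 559 without EB pool 4 replicate 3, 642, 668, 707 and 717 without ESC pool 4 replicate 3, ESC pool 4 replicate 1, EB pool 4 replicate 1 and EB unfractionated replicate 1. Respiratory chain genes had 34 of 72 lower in EB and 0 higher, with EB and ESC medians of -0.82 and -0.12. Mitochondrial ribosomal protein genes had 8 of 76 lower and 0 higher, with an EB median of -0.45. Very long coding sequences had 12 of 49 lower in EB and 0 higher: their median was -0.35 in EB and 0.28 in ESC. Secretory pathway genes had 17 of 40 lower and 1 higher, with medians of -0.46 and 0.06, and the matrix list 4 of 26 lower and 0 higher, with medians of -0.46 and 0.11. Chaperone genes had 4 of 21 higher and 0 lower (0.57 and 0.23), and cell cycle genes 6 of 41 higher and 0 lower (0.44 and 0.18). Proteasome genes had 1 higher and 1 lower of 31, with medians of 0.35 and 0.25, and limma called 0 of 20 tRNA synthetase genes for a difference between the states (5 at an unadjusted p under 0.05), with medians of 0.44 and 0.34. On the 12 arrays with median centring in place of quantile normalisation the test called 159 and 60 probe sets, and on the deposited scale 23 and 34. The list counts above were made on quantile normalised levels. The pool 4 arrays of the states also differed. In EB 28% to 36.1% of probe sets lay at the floor, against 49.7% to 59.1% in ESC. Mean signal was 210 to 244 against 83.0 to 112, and the Actb 3′ minus 5′ difference 0.46 to 1.01 against 1.34 to 3.54. The part of this in the state differences was not tested.

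Among single genes, Hspa5, the main Hsp70 chaperone of the endoplasmic reticulum, rose in ESC by 0.41 ± 0.07 (adjusted p = 0.0465) with levels of 11.02, 11.06 and 10.92 against 10.55, 10.54 and 10.68. In EB its pool 4 mean was 11.14 ± 0.04 (SD, n = 3) and its unfractionated mean 12.30 ± 0.06. The state difference was -1.61 (adjusted p = 0.000737), and the signs were opposite on this probe set. A further Hspa5 probe set differed by 0.32 in ESC, not called (adjusted p = 0.255), and by -0.87 in EB, and the third by -0.51 in ESC and -0.34 in EB, neither called (adjusted p = 0.0584 and 0.1). Their state differences were -1.20 (adjusted p = 0.016) and 0.23 (adjusted p = 0.501). The ESC difference of the representative was -0.21 on the deposited scale, so the opposite sign depends on the probe set and the scaling. Dst rose in ESC, was lower in EB at 7.51 ± 0.15 against 8.21 ± 0.14, and differed by -1.59 between the states (adjusted p = 0.00485). Its other 3 probe sets, at low levels of 5.29 to 6.44, were not called in either state or for the state difference (adjusted p from 0.266 to 0.877). Erdr1 and the zinc exporter Slc30a1 were not called in ESC at 0.53 ± 0.15 and 0.60 ± 0.15, were called lower in EB at -1.14 and -0.99, and had state differences of -1.67 and -1.62.

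In the other direction, Dnmt3b, a de novo DNA methyltransferase, was at 9.16, 9.56 and 9.51 in ESC pool 4 and at 9.66, 9.47 and 9.36 in ESC unfractionated RNA, groups that overlap (-0.09 ± 0.13). In EB it was at 11.77 ± 0.20 against 10.23 ± 0.26, and the state difference was 1.67 (adjusted p = 0.00744). Psmb8, an immunoproteasome subunit, had state difference 1.93 and an ESC pool 4 level of 5.33 to 5.57, at the bottom of the scale. Ap1m2, an adaptor of epithelial sorting, and Pou3f1, a POU factor of the primed epiblast, differed by 1.46 and 1.43 and were not called in ESC.

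**Figure D5:**
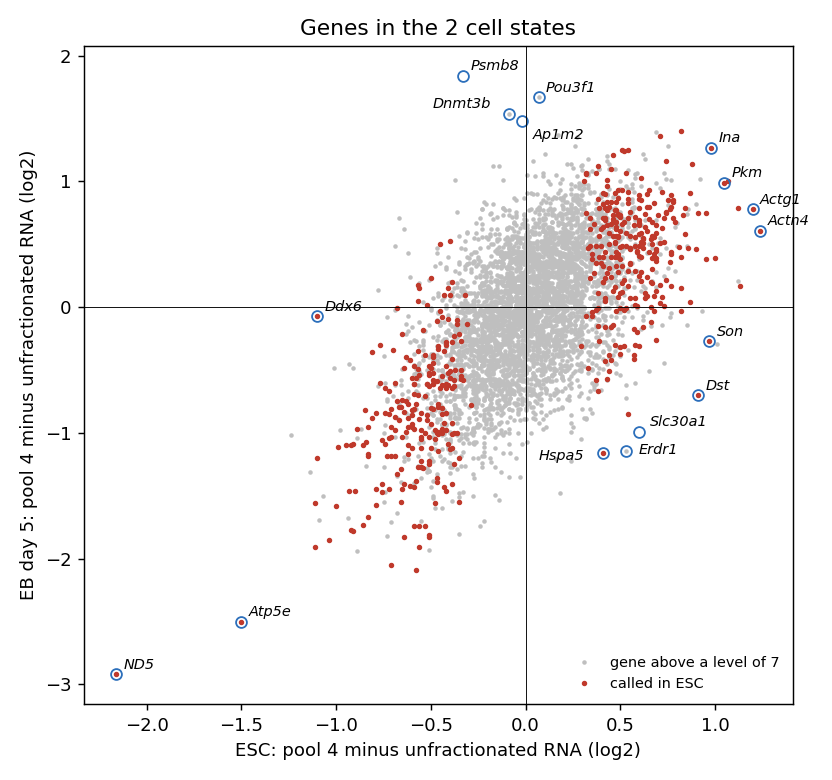
Pool 4 minus unfractionated RNA (log2) in ESC, x axis, against the same difference in day 5 EB, y axis, for genes with a mean level above 7. Red points are genes called in ESC and labelled circles are genes described in the text, some of them below a level of 7; most red points share their sign in both states, while Hspa5, Dst and Son lie at lower right.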

How the data were processed

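Affymetrix mouse arrays of 3 ESC pool 4 and 3 ESC unfractionated samples were used, with 12 arrays for the test between states and 15 for the ESC pools. The authors deposited log2 signals for 45101 probe sets; MAS5 and affy are named in the submitters' processing notes, with no version or setting. From the values, arrays were scaled to spike-in RNAs, whose mean log2 value was 9.59 to 9.74 on the 6 arrays. Controls (64) were left out of the fits. A symbol came from the platform annotation: 34945 probe sets had 1 gene, 932 several and 9160 none, and 34741 matched the RefSeq table (GRCm38.p6). Values were transformed as log2(signal + 32), quantile normalised within each fit and fitted in limma 3.58.1 (R 4.3.3; lmFit, then two-sided moderated tests by eBayes), with Benjamini-Hochberg adjustment over 45037 probe sets; scripts were tested on simulated data. Single values were compared by exact permutation. The number of arrays limits the precision.

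Named genes were the 12 highest and 12 lowest called genes without overlap, up to 2 called members per list and direction, Pou5f1, Sox2 and Nanog, and the 4 largest called state differences per direction; clone-like symbols were skipped. Members and lists were chosen with earlier results of these data known. Protein length was not analysed here. Alternatives were other offsets, centring, scales, floors, filters, variance models, a replicate block and leaving out each array.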

Additional observations from a re-analysis of the deposited data

Results flagged for a closer look

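For 18 of the 74 named genes the pool 4 minus unfractionated RNA difference was not the same in EB and in ESC by the limma interaction test over 12 arrays (adjusted p under 0.05, n = 3 arrays a group); each value is EB minus ESC in log2. Over all 18194 genes 3.93% were called. Of the 18, 8 were named because they had the largest called state differences, so the naming rule fixed them, and the other 10 were among 66 genes named by other rules. Of these, 12 were lower in EB: Erdr1 (-1.67), Slc30a1 (-1.62), Hspa5 (-1.61), Dst (-1.59), Son (-1.24), Atp5e (-1.03), Scap (-1.0), Sec61a1 (-0.93), Trp53bp1 (-0.92), Slc2a3 (-0.87), Gpx1 (-0.86) and Pfdn5 (-0.76). The other 6 were higher in EB: Sec23a (0.92), Ddx6 (1.07), Pou3f1 (1.43), Ap1m2 (1.46), Dnmt3b (1.67) and Psmb8 (1.93). The representative probe sets of Hspa5, Dst and Sec23a were called in both states with opposite signs: 0.41 and -1.16 for Hspa5, 0.91 and -0.70 for Dst, and -0.40 and 0.53 for Sec23a, in ESC and EB. Atp5e, Gpx1 and Pfdn5 were lower in pool 4 in both states.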

How the results depend on the processing

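Calls in ESC, given as probe sets higher and lower with 499 and 471 as reported, were 0 and 1 with an offset of 8, 8923 and 1969 with median centring, 14 and 3654 on the deposited scale, 199 and 241 with a common floor, and 2535 and 773 with a trended, robust prior. A replicate block gave 0 and 0, with 6512 probe sets at an unadjusted p under 0.05. Each group had 1 array of each number, so the block cannot change a difference or its sign. Deviations of same-numbered arrays, taken over all probe sets with those at the floor, correlated at -0.00839, -0.0296 and 0.0238. The lowest value of the ESC pool 4 arrays was 3.8, 2.93 and 3.35 for numbers 1, 2 and 3, and the other pools had the same values by number. Whether the numbers pair the arrays was not settled. Leaving out an array gave 0 to 61 higher and 0 to 63 lower. EB calls were 728 and 818 with an offset of 8, 6280 higher with median centring, 338 and 5397 on the deposited scale and 0 and 0 with a replicate block (9513 at an unadjusted p under 0.05); leaving out an array gave 442 to 1246 higher and 468 to 1050 lower. State difference calls were 72 and 101 with an offset of 8, 861 higher with a larger offset, 159 and 60 with median centring, 23 and 34 on the deposited scale and 855 higher with a common floor; a replicate block gave 369 and 498, and leaving out an array 169 to 506 higher and 233 to 555 lower.

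Signs turned on the deposited scale for Atp5a1 (-0.10), Atp5b (-0.25), Cct2 (-0.33), Epcam (-0.02), Erdr1 (-0.14), Hspa4 (-0.06), Hspa5 (-0.21), Mcm7 (-0.14), Pou3f1 (-0.32) and Slc2a3 (-0.31). With median centring they turned for Atp5b (-0.04), Cct2 (-0.12), Pou3f1 (-0.10) and Slc2a3 (-0.10). With an array left out they turned for Ap1m2 (0.01 and 0.11; range -0.13 to 0.11), Dnmt3b (0.04; range -0.16 to 0.04) and Pou3f1 (-0.00 and -0.04; range -0.04 to 0.20), none of them called. Averaging a gene's probe sets, the representative included, could move only the 52 of 74 named genes that had several. It turned no sign and moved 43 of these 52 differences by more than the spread between replicates. The cause was not tested. The other offsets and the common floor turned no named gene's sign. The filter and the variance model leave a difference unchanged, so they could turn none. Results by protein length were not run, for want of a protein table here. Low signals near the floor limit what pool 4 can show.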

Other observations

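Probe sets of 1 gene disagreed for a few abundant transcripts, chosen after their values were seen. For Tmsb10, thymosin beta 10, the probe set of highest level differed by -0.06 ± 0.05, while 2 others differed by -1.14 ± 0.11 and -0.84 ± 0.10 and were called (adjusted p = 0.0184 and 0.0217). For Hnrnpab, an RNA-binding protein, a probe set rose by 0.33 ± 0.05 (adjusted p = 0.044), a further probe set fell by 0.57 (adjusted p = 0.0297), and Hnrnpab was on another probe set at 11.55, 10.68 and 7.95 on the 3 pool 4 arrays and at 11.91, 11.65 and 11.64 on the unfractionated arrays. Over the 3 pool 4 arrays these levels have the same order as 18S ribosomal RNA, at 8.26, 6.28 and 4.68, and as mean signal, at 112, 98.25 and 83.02. With 3 arrays and a probe set picked after its values were seen, a shared order says little, and a relation was not tested.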
